A study of Mus musculus with 4 samples.

Results

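Interferon-stimulated genes were followed across the cell types of mouse mammary tumours. The members were 32 genes chosen by symbol, out of the 55472 entries of the deposited gene table, and every one had at least 1 unique molecular identifier (UMI, a tag that marks 1 captured RNA molecule). The tumours came from female FVB mice aged 13 to 14 weeks, and all carried the same 3 alleles: MMTV-PyMT, K14Cre and Rosa-tdTomato. The MMTV promoter drives the polyoma middle T oncogene in the mammary epithelium, and the keratin 14 promoter drives Cre, which switches on the tdTomato reporter. No treated or wild-type group was analysed here, and the comparisons were between cell types and between tumours. Droplet libraries were made from 4 tumours of 3 mice. Tumour 1 was pooled from several glands of mouse 1, and tumour 2 came from the inguinal gland of mouse 2. Tumours 3 (thoracic) and 4 (inguinal) both came from mouse 3, so cell types were tested over 3 mice and tumours were described without a test.

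Interferons are secreted proteins that bind receptors on almost every nucleated cell. Type I and type III interferons signal through JAK1 and TYK2 to a complex that holds STAT2 and IRF9, which binds the interferon-stimulated response element (ISRE) in the promoters of its targets. Type II interferon acts through another promoter element, the gamma-activated site (GAS). In mammary tumours both the transformed epithelium and the stromal and immune cells can respond, and many of the genes also have a resting level.

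RefSeq promoter windows (GRCm38.p6) reached from 250 bases before to 50 bases after the gene start, 300 bases in all, and 24 of the 32 members had one. The ISRE core searched on both strands was GAAANNGAAA, where N is any base and overlapping matches were counted. It was found in the windows of 12 of the 24 members (50.0%) and of 1079 of 27025 genes (3.99%). The GAS motif TTCNNNGAA, which reads the same on both strands, was found for 6 members (25.0%) and for 9.55% of genes. A match describes letters in the window and shows no bound factor. The stretches below are those of 7 of the members that had a match before the gene start. Gbp2, Stat2 and Oas3 had one as well and are not shown. Irf7, Ifi35 and Xaf1, whose levels are also compared below, had 0 ISRE core matches in their windows and are not shown. Capitals mark ISRE core matches, and capitals that begin with TTTC are matches on the opposite strand. All are written 5′ to 3′ along the gene's own strand.
Isg15: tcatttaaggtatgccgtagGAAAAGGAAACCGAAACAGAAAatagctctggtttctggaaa
Bst2: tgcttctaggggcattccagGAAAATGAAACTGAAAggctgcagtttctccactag
Trim30a: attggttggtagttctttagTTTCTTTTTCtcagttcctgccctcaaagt
Rsad2: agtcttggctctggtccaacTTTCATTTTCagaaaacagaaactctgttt
Oas1a: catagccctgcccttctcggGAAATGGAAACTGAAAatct
Ifit1: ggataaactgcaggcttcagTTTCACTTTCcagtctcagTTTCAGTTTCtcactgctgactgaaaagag
Ifit3: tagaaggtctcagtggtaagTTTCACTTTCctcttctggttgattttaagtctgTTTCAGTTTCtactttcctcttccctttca
The Isg15 stretch lies at chr4:156200855-156200916 on the minus strand and holds 3 overlapping matches, the nearest 56 bases before the start. The Bst2 stretch, chr8:71537567-71537622 on the minus strand, holds 2 overlapping matches, the nearest 114 bases before the start. Trim30a has 1 match in chr7:104465200-104465249 on the minus strand. Rsad2 has 1 match in chr12:26456543-26456592, also on the minus strand. The 2 overlapping matches of Oas1a lie in chr5:120907526-120907565 on the minus strand, 4 bases from the start at the nearest. Ifit1 and Ifit3 both lie on the plus strand and hold 2 separate matches each, in chr19:34640765-34640833 and chr19:34583353-34583436.

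Between 8715 and 9578 cells per tumour were kept, with a median of 1922.5 to 3281 UMIs per cell and 20281799 to 39370565 UMIs per library. Cells were assigned by summed UMIs of 2 marker genes. The gates took 1522 fibroblast cells (Col1a1 and Col3a1, at least 10 UMIs), 3033 macrophages (C1qa and C1qb, at least 5), 633 endothelial cells (Cdh5 and Pecam1, at least 2), 365 T cells (Cd3g and Trbc2, at least 2) and then 21078 luminal cells (Krt8 and Krt18, at least 3). Marker genes that the gates did not use were highest in their own gate for all 5 types, and no T-cell gate in a tumour held more than 130 cells. Luminal markers were also present in every other gate. Their summed level there was 15.4% of the luminal level in fibroblasts, 28.1% in macrophages, 29.3% in endothelial cells and 32.6% in T cells. Macrophage markers in the T gate stood at 19.5% of the macrophage level, natural killer markers there at 302 CPM (the UMI counts of a group of cells, scaled to the same total for every group), and neutrophil markers in the endothelial gate reached 1326 CPM in 1 tumour. How much of a member's level in these gates comes from RNA of other cells was not tested. Values with the cells that also passed the luminal gate left out are given beside the calls and counts that they move most. Library pairs shared 96 to 129 cell barcodes (1.01 to 1.37%).

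Most members were found in all 5 cell types, and 0 were led by 1 type. By mean CPM over mice, 7 of the 32 members were shared, meaning at least 20 CPM in every gate with the highest gate under 4 times the lowest: Isg15, Bst2, Irf7, Irf1, Ifi35, Rtp4 and Zbp1. Another 7 were intermediate (Ifitm3, Trim30a, Xaf1, Rsad2, Phf11d, Ifit1 and Irf9), and 18 stayed under 20 CPM in every gate. By the same rule 26.4% of the 10537 genes tested were shared. The class depended on luminal-gate cells and on mouse 2. With cells that also passed the luminal gate left out, 4 members were shared (Isg15, Bst2, Ifi35 and Xaf1), and without mouse 2 there were 3 (Isg15, Bst2 and Ifi35). The share of all genes under these settings is not given. Of the intermediate members, Rsad2 and Ifit1 had their highest means in endothelial cells, at 30.1 and 22.6 CPM. There 1 cell of tumour 2 held 26 of the 38 Rsad2 UMIs and 7 of the 24 Ifit1 UMIs. A member would be called led by 1 gate if it was higher there than in each of the other 4 gates, with all 4 contrasts at an adjusted p under 0.05 and at least 2-fold. No member met this with edgeR's quasi-likelihood test or with DESeq2, against 16.6% of all genes. At unadjusted p-values 1 member did, Oas1a in macrophages, against 18.7% of all genes, and under other settings it was Oas1a, Trim30a in macrophages or no member.

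**Figure D1:**
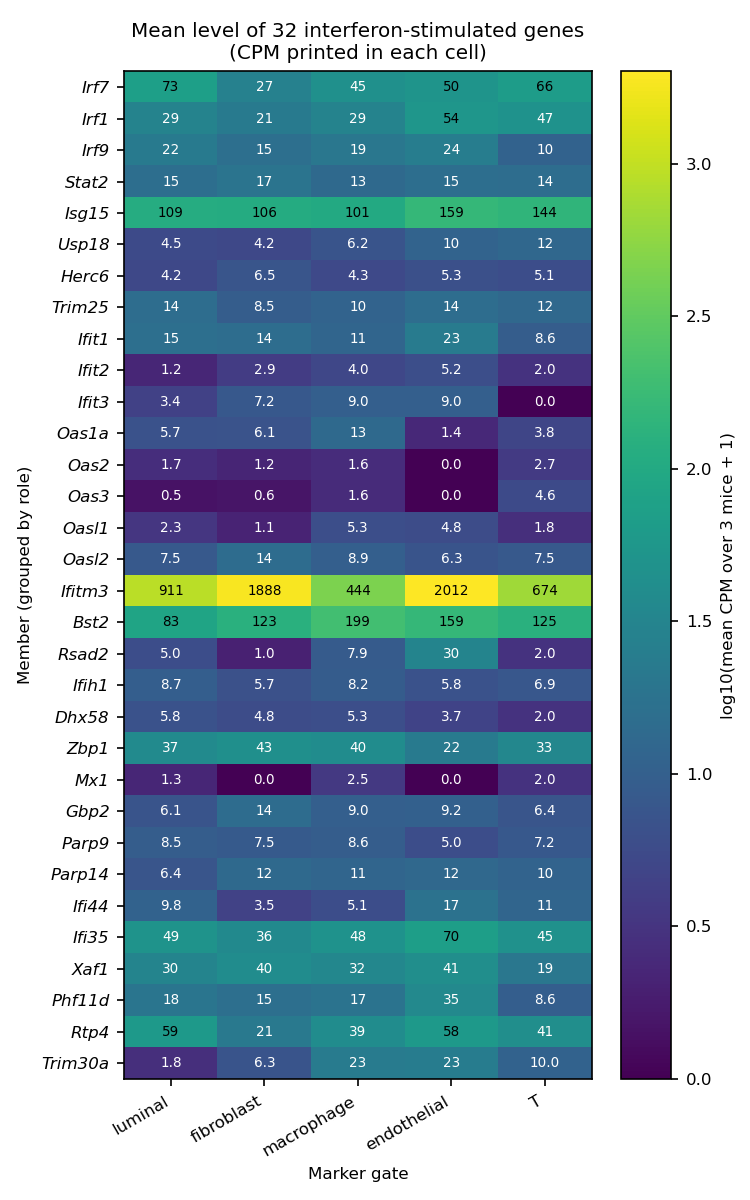
Mean level of each of the 32 members (rows, grouped by role) in the 5 marker gates (columns). Each cell prints the mean CPM over 3 mice, and the colour gives log10 of that mean plus 1. Ifitm3, Isg15 and Bst2 form bright rows across all gates, while Trim30a runs from 1.80 CPM in luminal cells to 23.4 in endothelial cells.

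Ifitm3, a membrane protein that blocks entry of enveloped viruses, had the most UMIs of the 32 in every gate. Its mean was 911 ± 497 CPM (SD, n = 3 mice) in luminal cells, 1888 ± 484 in fibroblasts, 444 ± 282 in macrophages, 2012 ± 412 in endothelial cells and 674 ± 225 in T cells. The fibroblast and endothelial values of all 3 mice lay above all luminal ones, and a UMI was seen in 93.9% of fibroblasts and 92.3% of endothelial cells against 70.8% of luminal cells. Isg15, a ubiquitin-like protein that is joined to other proteins, was the most even of the abundant members, with a highest gate 1.58 times the lowest. It averaged 109 ± 73.2 CPM in luminal cells, 106 ± 79.9 in fibroblasts, 101 ± 70.4 in macrophages, 159 ± 175 in endothelial cells and 144 ± 71.8 in T cells. The spread between mice exceeded every difference between these gate means.

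Bst2, also called tetherin, holds budding virions at the cell surface. Its mean was 82.9 ± 26 CPM in luminal cells, 123 ± 39.2 in fibroblasts, 199 ± 38.1 in macrophages, 159 ± 88 in endothelial cells and 125 ± 74.3 in T cells. Macrophages were above luminal cells in every mouse, and their 3 values did not overlap the luminal ones. Irf7, the transcription factor that amplifies type I interferon production, averaged 73.3 ± 67.8 CPM in luminal cells and 27.3 ± 37.2 in fibroblasts. Irf1, a transcription factor induced by type II interferon in particular, averaged 28.9 ± 2.15 in luminal cells, 21.2 ± 8.47 in fibroblasts, 53.9 ± 8.66 in endothelial cells and 47.3 ± 11.6 in T cells. Ifi35 averaged 49.0 ± 18.5 CPM in luminal and 70.0 ± 15.5 in endothelial cells. Rtp4, a zinc-finger protein, averaged 58.7 ± 27.2 in luminal cells and 20.7 ± 19.0 in fibroblasts. Zbp1, a sensor of Z-form nucleic acid, lay between 22.3 ± 15.8 in endothelial cells and 43.0 ± 13.1 in fibroblasts.

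The low members were mostly the antiviral effectors and sensors. The oligoadenylate synthetases, which activate RNase L, reached at most 13.5 CPM (Oasl2 in fibroblasts), and Oas1a had its highest mean in macrophages at 12.6 ± 7.86. Ifit2 and Ifit3, which bind foreign RNA, peaked at 5.18 and 9.02 CPM. The RNA sensors Ifih1 and Dhx58 stayed under 9 CPM, and the GTPase Mx1 had 119 UMIs in luminal cells and 17 in macrophages. Ifit3 had 0 UMIs in the 365 T cells, where 3 counts would be 3.43 CPM and luminal cells as a whole had 3.74. Mx1 had 0 UMIs in fibroblasts and endothelial cells, and Oas2 and Oas3 had 0 in endothelial cells, where the level of 3 counts was 1.69 CPM. At this depth the absence of these genes from those cell types cannot be shown.

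In 25 of the 32 members the counts were high enough for the test, in 1 edgeR fit of 15 sums (3 mice by 5 gates) with mouse as a block. The members left out were Herc6, Ifit2, Oas2, Oas3, Oasl1, Dhx58 and Mx1. A difference between any of the gates was called for 16 members and for 68.0% of all genes. Against luminal cells, 4 members were higher and 3 lower in fibroblasts, where 24.5% of genes were higher and 24.1% lower. In macrophages 7 were higher and 1 lower, against 22.0% and 21.4% of genes. In endothelial cells 8 were higher and 3 lower, against 16.8% and 16.2%. In T cells 1 was higher and 0 lower, against 9.10% and 7.04%, and of the 4 gates that one held the most luminal-marker RNA. The median log2 fold change of the members was -0.21 in fibroblasts, 0.24 in macrophages and 0.37 in endothelial cells, beside -0.06, -0.06 and -0.08 over all genes. In T cells it was -0.37 as fitted and -0.15 with Ifit3 set at the bound of 3 counts, beside -0.11 over all genes. DESeq2's size factors moved the median of all genes in fibroblasts to 0.09 and that of the members to -0.06. Over all alternatives the median of the members ran from -0.38 to 0.02 in fibroblasts, 0.04 to 0.34 in macrophages, 0.17 to 0.75 in endothelial cells and -0.97 to -0.02 in T cells, so its sign was not fixed in fibroblasts. T-cell calls rose to 4 with luminal-gate cells left out, 1 higher and 3 lower, and the share of all genes in that fit is not given.

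Trim30a, a TRIM-family protein that dampens innate signalling, was higher than in luminal cells in all 4 other gates. Luminal cells of mice 1, 2 and 3 had 1.79, 2.31 and 1.28 CPM. Macrophages had 21.3, 27.7 and 19.4, and endothelial cells had 31.8, 31.4 and 7.10. Fibroblasts had 6.85, 8.19 and 3.79, and T cells 6.12, 16.3 and 7.59. No value of any other gate overlapped the luminal ones, although the T gate rests on 8 UMIs. The log2 fold change was 3.95 ± 0.26 (SE) in macrophages (edgeR quasi-likelihood test, Benjamini-Hochberg adjusted p = 2.57e-11), 3.07 ± 0.41 in endothelial cells (adjusted p = 3.95e-06), 1.67 ± 0.40 in fibroblasts (adjusted p = 0.00162) and 2.53 ± 0.64 in T cells (adjusted p = 0.00813). The T-cell call was lost without mouse 2 (adjusted p = 0.0765) and without mouse 3 (adjusted p = 0.116). Macrophages, where Trim30a averaged 22.8 CPM, left marker RNA in the T gate at 19.5% of their own level, and its part in the T-cell value was not tested.

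In macrophages 6 members rose beside Trim30a: Bst2, Ifit3, Oas1a, Parp14, Gbp2 and Xaf1. Bst2 rose by 1.51 ± 0.20 on the log2 scale (edgeR, adjusted p = 2.65e-06). Ifit3 was higher by 1.60 ± 0.37 (adjusted p = 0.0015), Oas1a by 1.28 ± 0.31 (adjusted p = 0.00194) and Parp14, an ADP-ribosyltransferase, by 1.07 ± 0.31 (adjusted p = 0.00752). Smaller increases were those of the GTPase Gbp2 (0.76 ± 0.28) and of Xaf1 (0.44 ± 0.16), a pro-apoptotic protein. Ifitm3 fell by 0.83 on the log2 scale (SE 0.20, adjusted p = 0.00172), the only member called lower there. The calls of Bst2 and Ifitm3 were kept without each mouse in turn. Gbp2 lost its call without mouse 2 (adjusted p = 0.184), Oas1a without mouse 1 (0.0864), Parp14 without mouse 3 (0.173), and Xaf1 without mouse 1 (0.083), without mouse 3 (0.41) and with luminal-gate cells left out (0.0972). Oas1a fell under the count filter without mouse 2, without mouse 3 and with luminal-gate cells left out. Gbp2 did so without mouse 3, and neither was tested in those fits. Ifit3 was kept without mouse 1 and fell under the count filter without mouse 2, without mouse 3 and without 1 endothelial cell that held 7 of the 11 Ifit3 UMIs of its gate, so it was not tested there.

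In endothelial cells 11 members were called. Ifitm3 rose by 1.05 ± 0.20 on the log2 scale (edgeR, adjusted p = 0.000313), Bst2 by 0.85 ± 0.23 (adjusted p = 0.00683), Irf1 by 0.73 ± 0.20 (adjusted p = 0.00843) and Parp14 by 1.32 ± 0.42 (adjusted p = 0.0187). Xaf1 rose by 0.57 ± 0.21 and Phf11d, a PHD-finger protein, by 0.80 ± 0.29. Zbp1, Irf7 and the RNA sensor Ifih1 were lower, with changes of -0.74 ± 0.23, -0.87 ± 0.30 and -1.41 ± 0.53, the last from 6 UMIs. Rsad2, the antiviral enzyme viperin, was called higher by 2.03 ± 0.55 (adjusted p = 0.0069), but 26 of its 38 endothelial UMIs (68.4%) came from 1 cell of tumour 2. Without that cell the change was 0.37 with an adjusted p of 0.670. The cell had 2748 UMIs, 23 of them Isg15 and 7 each Ifit1 and Ifit3, with 2 UMIs each of Cdh5 and Pecam1. Without mouse 3 the endothelial calls numbered 2, Ifitm3 and Trim30a, and the share of all genes in that fit is not given. With luminal-gate cells left out, Irf7 moved to -1.60 and Zbp1 to -1.40. Zbp1, Phf11d and Ifih1 were also lost without mouse 1 (adjusted p = 0.0511, 0.0935 and 0.0613), and Phf11d without mouse 2 (0.084). By DESeq2's test Irf7, Ifih1, Zbp1 and Rsad2 were not called (adjusted p = 0.256, 0.126, 0.0506 and 0.0603).

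Fibroblasts combined higher Ifitm3, Gbp2, Oasl2 and Trim30a with lower Rtp4, Irf7 and Ifi44. Ifitm3 rose by 1.11 ± 0.20 on the log2 scale (edgeR, adjusted p = 7.21e-05), Gbp2 by 1.20 ± 0.29 (adjusted p = 0.00188) and Oasl2 by 1.11 ± 0.30 (adjusted p = 0.00415). Rtp4 fell by 1.52 (SE 0.25, adjusted p = 2.23e-05), Irf7 by 1.50 (SE 0.28, adjusted p = 0.000107) and Ifi44 by 1.87 (SE 0.46, adjusted p = 0.00204, from 10 fibroblast UMIs). With luminal-gate cells left out, Irf7 moved to -2.17 and Ifi44 to -2.90. Ifi44 lost its call without mouse 3 (adjusted p = 0.195), and the others kept theirs wherever leaving out a mouse left them testable. Oasl2 fell under the count filter without mouse 2 and without mouse 3, and Gbp2 without mouse 3. Ifit3, Oas1a, Trim30a, Gbp2 and Phf11d have near-identical relatives among which reads may be split, so their levels are uncertain to that extent.

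**Figure D2:**
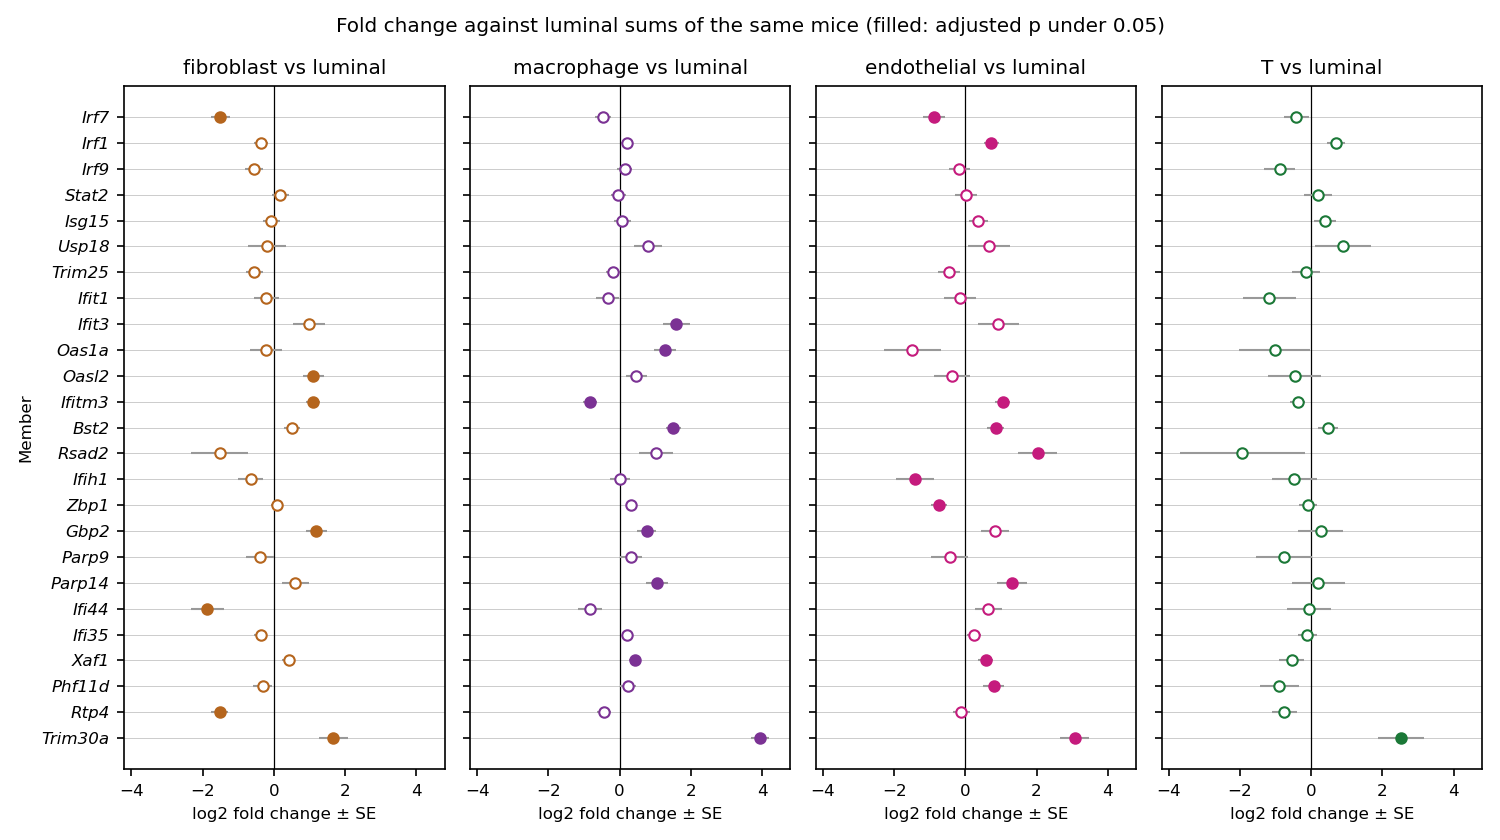
Log2 fold change (points, with SE as bars) of the 25 tested members in each gate against luminal sums of the same 3 mice, by edgeR. Filled points had an adjusted p under 0.05, and Ifit3 is not drawn for T cells, where it had 0 UMIs. Trim30a lies to the right in all 4 panels and Irf7 to the left in fibroblasts and endothelial cells.

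The other genes of the pathway were described from lists of ligands, receptors, signalling proteins, sensors, type II targets and further interferon-stimulated genes. The ligands could not be tested. Of 8, Ifng had 13 UMIs in T cells, Ifnk 75 in luminal cells, Ifnb1 1 UMI in luminal cells, and Ifna2, Ifna4, Ifnl2 and Ifnl3 had 0 in every gate. Of 5 receptor chains tested, 3 rose in fibroblasts, 5 in macrophages, 4 in endothelial cells and 1 in T cells, and 0 fell in any, beside the shares of all genes given above for each gate. In T cells Ifngr2 (-0.92) and Ifnar2 (-0.09) lay below luminal cells without being called. Ifngr1, the ligand-binding chain of the type II receptor, led each comparison, with log2 fold changes of 2.45 ± 0.18, 2.89 ± 0.17, 1.78 ± 0.22 and 2.31 ± 0.25 (edgeR, highest adjusted p = 1.12e-06). The smallest calls were Ifngr2 at 0.50 ± 0.18 in fibroblasts and 1.76 ± 0.15 in macrophages, and Ifnar2, a chain of the type I receptor, at 0.81 ± 0.18 in endothelial cells. The mean level of Ifngr1 was 17.1 CPM in luminal cells and 65.8 to 110 CPM in the other gates.

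Among 8 signalling genes tested, 4 rose and 2 fell in fibroblasts, 4 and 1 in macrophages, 3 and 2 in endothelial cells, and 2 and 0 in T cells. Over all genes, 24.5% rose and 24.1% fell in fibroblasts, and 22.0% and 21.4% in macrophages. The shares were 16.8% and 16.2% in endothelial cells and 9.10% and 7.04% in T cells. They also stand beside the counts of sensing genes below. Socs1, a feedback inhibitor of JAK kinases, rose most in fibroblasts (1.70 ± 0.42) and Jak2 in endothelial cells (1.37 ± 0.40). Ptpn6, a phosphatase of blood cells, rose by 3.43 ± 0.17 in macrophages and 2.75 ± 0.27 in T cells and had changes of -1.68 ± 0.35 in fibroblasts and -1.32 ± 0.44 in endothelial cells. Stat3 changed by -0.65 ± 0.18 in macrophages. Of 11 sensing genes tested, 2 rose in fibroblasts, 8 in macrophages, 3 in endothelial cells and 3 in T cells, with 0 lower. Irf8, a transcription factor of myeloid and lymphoid cells, had the highest change in each, from 1.51 ± 0.59 in fibroblasts to 7.77 ± 0.28 in macrophages. It also reached 4.91 ± 0.41 in endothelial and 5.07 ± 0.53 in T cells. Against macrophages, the log2 change in T cells was -2.70 for Irf8 and -4.04 for Irf5, another sensing gene called in T cells. Macrophage markers in the T gate stood at 19.5% of their macrophage level. The part of macrophage RNA in these T-cell calls was not tested. The lowest calls were Tmem173 (STING) in fibroblasts at 0.96 ± 0.23, the adaptor Myd88 in macrophages at 0.71 ± 0.15, and Irf2, which competes with IRF1, at 0.98 ± 0.17 in endothelial and 0.76 ± 0.22 in T cells.

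Of 11 type II targets tested, 3 rose and 3 fell in fibroblasts, 8 rose in macrophages, 3 in endothelial cells and 4 in T cells. These counts, and those of the further genes below, stand beside the shares of all genes given above for each gate. Cxcl10, a chemokine for activated T cells, averaged 0.287 CPM in luminal cells, 6.40 in fibroblasts, 35.7 in macrophages and 72.2 in endothelial cells. Its log2 fold changes against luminal cells were 3.93 ± 0.95, 6.96 ± 0.51 and 7.17 ± 0.62 (edgeR, highest adjusted p = 0.00166). Gbp4, a GTPase, had the highest change in T cells at 5.46 ± 0.80. The immunoproteasome subunit Psmb9 changed by -1.05 ± 0.24 in fibroblasts and 1.31 ± 0.25 in T cells, the antigen transporter Tap1 by 0.66 ± 0.25 in macrophages, and Gbp7 by 1.65 ± 0.33 in endothelial cells. Among 20 further interferon-stimulated genes tested, 12 rose and 3 fell in fibroblasts, 11 and 1 in macrophages, 6 and 2 in endothelial cells, and 7 and 2 in T cells. The extremes were members of the Ifi200 DNA-sensor family and of the Ifitm family. Ifi205 was at 9.12 ± 0.42 in fibroblasts, Ifi204 at 5.31 ± 0.40 in macrophages, Ifi203 at 5.53 ± 0.31 in endothelial cells and Ifitm1 at 5.36 ± 0.43 in T cells. The lowest calls were Epsti1 at -3.24 ± 0.47 in fibroblasts and -2.08 ± 0.53 in endothelial cells, Ly6e at -1.34 ± 0.14 in macrophages and Ifitm2 at -0.64 ± 0.14 in T cells.

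Between tumours, the library of tumour 2 had the highest level of most of the members compared in 4 of the 5 gates. Each tumour is 1 sample, so these values carry no test. Members with at least 20 CPM on average over the 4 tumours were compared, and all genes were taken by the same rule. That mean includes tumour 2, so members that were high there passed more easily. Irf9 and Xaf1 in luminal cells, Irf7 in fibroblasts and Trim30a in macrophages averaged under 20 CPM over the other 3 tumours. So did Rsad2, Zbp1 and Irf9 in endothelial cells. The counts below rest in part on these members. In luminal cells tumour 2 was highest for 10 of 10 members, against 45.2% of all genes. It was highest for 7 of 8 in fibroblasts (33.3% of genes), 9 of 11 in macrophages (34.8%), 10 of 12 in endothelial cells (29.5%) and 3 of 8 in T cells (34.7%). The median ratio of tumour 2 over the mean of the other 3 was 1.99 in luminal cells, 1.92 in fibroblasts, 1.60 in macrophages, 2.12 in endothelial cells and 1.38 in T cells, while the median over all genes was 1.02 to 1.07. Irf1 was not highest in tumour 2 in fibroblasts, macrophages or endothelial cells. Tumour 2 was also the deepest library and had the highest share of luminal-gate cells (83.2%, against 42.2 to 57.3% in the others), and the part of these in the result was not tested.

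Isg15 had 67.9, 193, 47.5 and 80.2 CPM in luminal cells of tumours 1 to 4. Fibroblasts had 57.1, 198, 58.2 and 68.9, and macrophages 67.1, 182, 53.5 and 52.7. In these 3 gates tumour 2 was highest with no overlap of intervals, and in luminal cells the other 3 also differed among themselves. Endothelial cells had 31.8, 358, 85.0 and 87.1 CPM from 4, 137, 59 and 50 UMIs, with tumour 2 high again. T cells broke the pattern with 208, 157, 71.0 and 57.1, since there tumour 1 was highest and its interval overlapped that of tumour 2. With luminal-gate cells left out the T-cell values were 115, 148, 102 and 76.7 CPM, from 14, 13, 24 and 9 UMIs, and tumour 2 was highest.

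Irf7 had the widest spread in the luminal gate of the 10 members compared there, with 28.6, 151, 32.4 and 46.2 CPM in tumours 1 to 4, a highest level 5.29 times the lowest. In macrophages it had 18.8, 89.8, 23.7 and 27.1, and in endothelial cells 23.8, 107, 21.6 and 15.7. Tumour 2 was above the other 3 in each of these gates, without overlap of the intervals. Fibroblasts had 0, 69.6, 10.5 and 15.0 CPM, the first from 0 UMIs. T cells had 67.3, 119, 14.2 and 5.71, from 11, 22, 5 and 1 UMIs, and the intervals of tumours 1 and 2 overlapped. Ifitm3 had 798, 1456, 320 and 613 CPM in luminal cells, where all 4 tumours were apart and tumour 2 was 4.55 times tumour 3. Xaf1 had 20.8, 51.2, 14.1 and 19.8 in luminal cells, again with tumour 2 alone at the top.

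Rtp4 had 44.4, 90.0, 45.9 and 38.1 CPM in luminal cells of tumours 1 to 4. Macrophages had 35.2, 62.1, 19.7 and 21.3, and endothelial cells 31.8, 102, 36.0 and 47.1. Tumour 2 was highest in all of these, and the endothelial interval of tumour 1 (8.66 to 81.4) overlapped that of tumour 2. In fibroblasts the values were 6.85, 42.3, 16.2 and 7.49, and in T cells 67.3, 43.4, 14.2 and 11.4. Bst2 had 63.1, 112, 70.8 and 75.2 CPM in luminal cells and 173, 242, 174 and 189 in macrophages. Tumour 2 was highest in both by less than 2-fold. Fibroblasts had 112, 167, 92.6 and 87.6, endothelial cells 79.4, 254, 163 and 124, and T cells 208, 103, 65.4 and 62.8. Ifi35 had 39.6, 70.3, 31.8 and 41.5 CPM in luminal cells and 45.8, 58.5, 40.2 and 37.7 in macrophages. Its fibroblast values were 13.7, 62.8, 33.9 and 29.2, its endothelial values 79.4, 78.5, 51.9 and 52.3, and its T-cell values 36.7, 65.1, 28.4 and 45.7. In endothelial and T cells the Ifi35 intervals of tumours 1 and 2 overlapped.

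**Figure D3:**
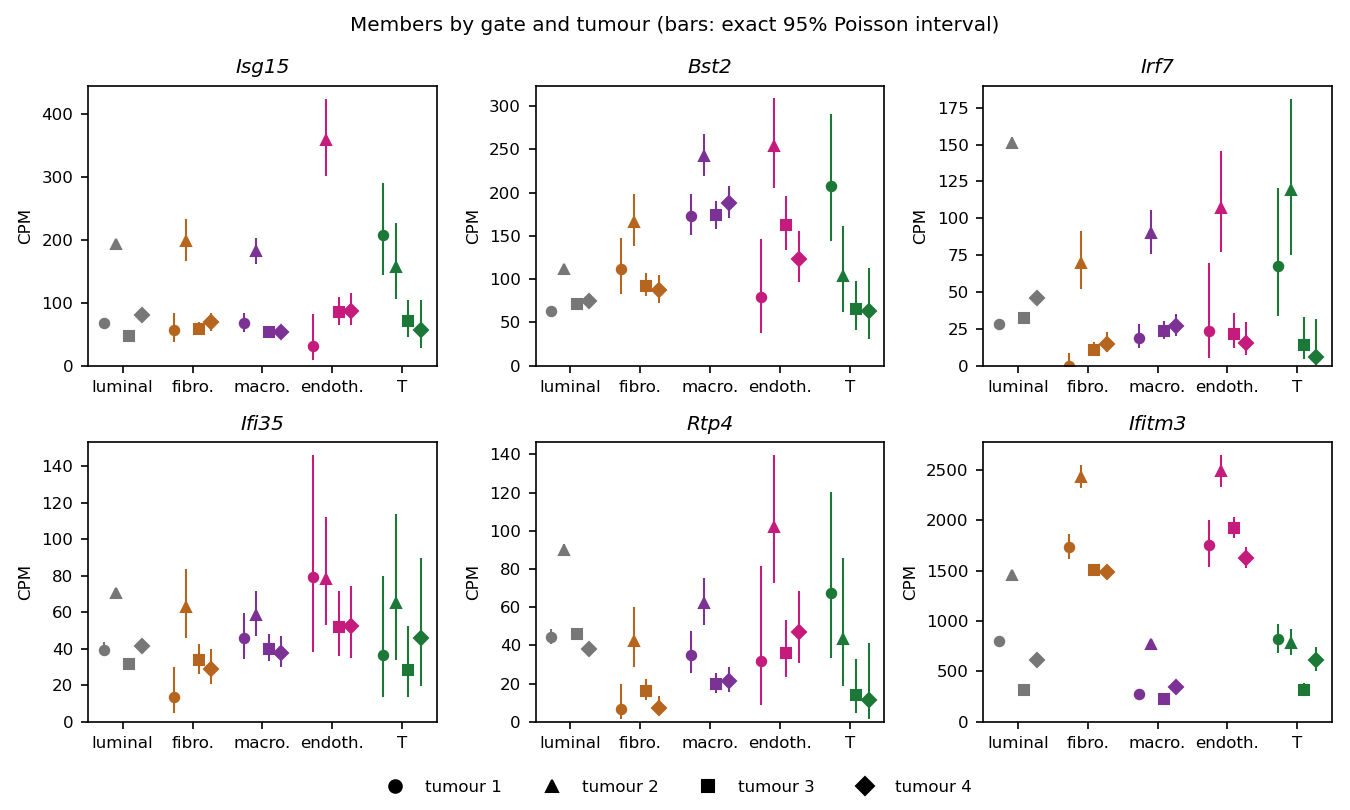
CPM of 6 members by gate (colour) and tumour (marker shape), with exact 95% Poisson intervals that cover counting error only. Tumour 2 (triangles) stands above the other tumours for Isg15 and Irf7 in luminal cells, fibroblasts, macrophages and endothelial cells, while for Isg15 in T cells tumour 1 is highest at 208 CPM.

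Counted by size, 6 of 10 members differed at least 2-fold between the highest and lowest tumour in luminal cells, against 7.97% of genes. The counts were 6 of 8 in fibroblasts (20.1% of genes), 5 of 11 in macrophages (8.26%), 9 of 12 in endothelial cells (30.1%) and 7 of 8 in T cells (47.2%). With tumour 2 left out, a choice made after seeing the data, they were 1 of 10 in luminal cells (Ifitm3, 3.58% of genes), 4 of 8 in fibroblasts (11.7%) and 0 of 11 in macrophages (4.40%). In endothelial cells they were 4 of 12 (21.2%) and in T cells 6 of 8 (32.3%). The members were again those chosen by the mean that includes tumour 2. In all these ratios a level under that of 3 counts was set at that level. Endothelial Rsad2 had 0 CPM in tumours 1 and 4, so its ratio of 4.56 compared 3-count levels and measured no difference. Tumours 3 and 4, which grew in the same mouse, differed 2-fold for 0 of 8 members in luminal cells (0.464% of genes), 0 of 7 in fibroblasts (3.82%) and 0 of 10 in macrophages (0.652%). In endothelial cells Zbp1 alone of 10 did (4.76%), and in T cells Irf1 alone of 6 (17.1%), both higher in tumour 4.

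The 7 members usually taken as strongly inducible (Isg15, Ifit1, Ifit3, Irf7, Rsad2, Usp18 and Oasl2) were summed. Usp18 removes ISG15 from proteins and blocks receptor signalling. The sum was 115, 411, 95.5 and 153 CPM in luminal cells of tumours 1 to 4. It was 68.5, 351, 96.9 and 106 in fibroblasts, 113, 347, 99.8 and 111 in macrophages, and 79.4, 664, 125 and 108 in endothelial cells. Tumour 2 was more than 2-fold above every other tumour in these 4 gates. In T cells the values were 324, 315, 85.2 and 68.5, with tumours 1 and 2 both high. Since luminal cells of tumour 2 were high and luminal RNA was present in the other gates, the sums were also taken without the cells that passed the luminal gate as well. Tumour 2 then had 324 CPM in fibroblasts, 303 in macrophages, 890 in endothelial cells and 228 in T cells, and the highest value of the other 3 tumours was 100.1, 114, 139 and 172. In these cells luminal markers were still at 4.92 to 20.0% of the luminal level. The luminal level times the luminal-marker share was also taken off. Over all cells of each gate this left tumour 2 at 257, 185, 505 and 148 CPM. These were above the other 3 in all but T cells, where tumour 1 kept 290. With luminal-gate cells left out, the same step left tumour 2 at 304, 263, 853 and 171 CPM. It was then highest in each of these gates, with T cells of tumour 1 at 159. Without the 1 endothelial cell with many Rsad2 UMIs, the endothelial sum of tumour 2 over all cells of the gate went from 664 to 503 CPM.

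**Figure D4:**
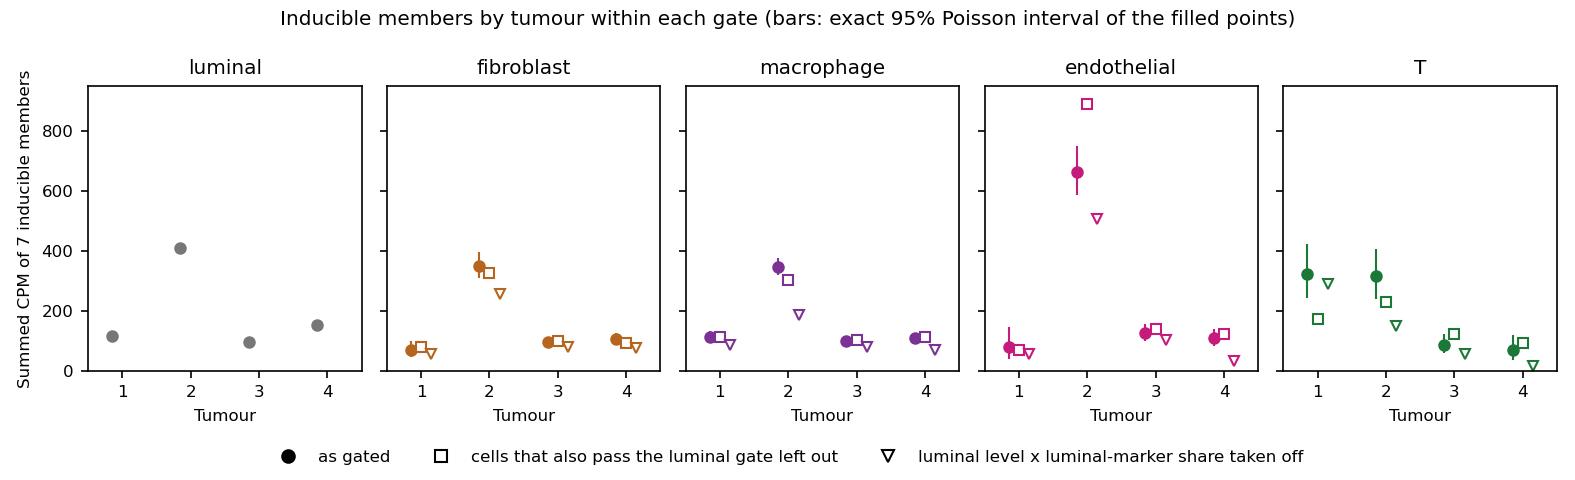
Summed CPM of the 7 inducible members by tumour in each gate. Filled points are all cells of the gate with exact 95% Poisson intervals, squares leave out cells that also passed the luminal gate, and triangles take off the expected luminal contribution. Tumour 2 is highest in luminal cells (411), fibroblasts (351), macrophages (347) and endothelial cells (664) and close to tumour 1 in T cells.

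A small share of cells held several inducible members at once. With each luminal cell thinned to 1000 UMIs, 0.363% of cells in tumour 1 (exact binomial 95% interval 0.194 to 0.621) had a UMI of 3 or more of the 7. The share was 1.53% (1.27 to 1.82) in tumour 2, 0.273% (0.136 to 0.488) in tumour 3 and 0.574% (0.390 to 0.814) in tumour 4. Tumour 2 was thus above the others at equal depth. Unthinned, the shares were 1.28, 6.74, 1.51 and 2.55%. In all, 783 luminal cells (3.71%) passed, 47, 537, 61 and 138 from tumours 1 to 4, and they held 46.6% of the inducible UMIs of the gate. In the other gates 25 fibroblasts, 61 macrophages, 12 endothelial cells and 6 T cells passed, which held 39.4, 47.2, 42.6 and 41.2% of the inducible UMIs.

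The other 25 members, which did not choose these cells, were also higher in them. Their sum was 5052 CPM in the chosen luminal cells and 1162 in the remaining ones, of which Ifitm3 alone made 3307 and 793. The other 24 summed to 1744 and 369 CPM. All 25 were higher in the chosen cells, where 52.4% of all genes were. These values pool the tumours, and tumour 2 gave 537 of the 783 chosen cells. Within tumours 1, 2 and 4 the number higher was also 25, and in tumour 3 it was 23. The chosen cells were deeper (median 4554 against 3284 UMIs), and the part of tumour and depth in this was not tested. Within tumours 1 to 4 the sums were 5721 against 1063, 5305 against 1731, 3663 against 568 and 4464 against 842 CPM. Pooled over the tumours, relative differences were widest for rare members. Mx1 had 22.2 CPM in the chosen cells and 0.286 in the others, Trim30a 17.8 and 0.908, and Ifi44 77.2 and 7.41, while Irf1 had 37.3 and 28.6. Macrophage markers were not uniformly raised in the chosen luminal cells, at 37.7 against 56.2, 25.7 against 37.8, 73.2 against 70.5 and 86.0 against 56.8 CPM in tumours 1 to 4. Of the 25, the number higher in the chosen cells was 23 in fibroblasts (42.5% of genes), 25 in macrophages (48.2%), 20 in endothelial cells (38.1%) and 18 in T cells (33.8%). These counts pool the tumours. Tumour 2 gave 12 of the 25 chosen fibroblasts, 29 of 61 macrophages, 10 of 12 endothelial cells and 3 of 6 T cells. The chosen cells were also deeper, with medians of 4453 against 2685, 3645 against 2097, 4047.5 against 2223 and 4824 against 1787 UMIs. The part of tumour and depth in these counts was not tested.

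**Figure D5:**
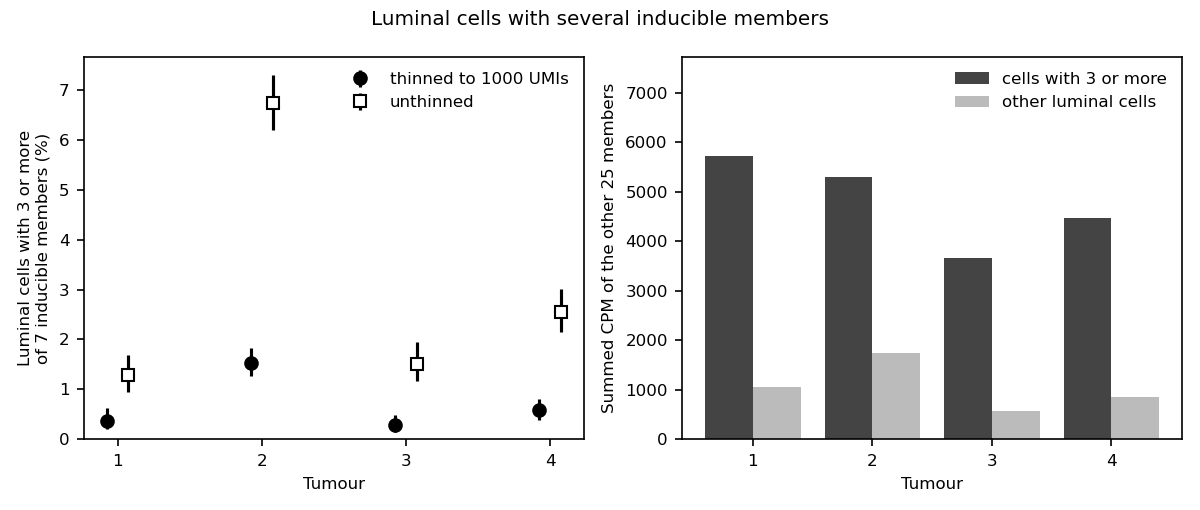
Left, percent of luminal cells with a UMI of 3 or more of the 7 inducible members in each tumour, thinned to 1000 UMIs per cell or unthinned, with exact binomial 95% intervals. Right, summed CPM of the other 25 members in those luminal cells and in the remaining ones, on an axis from 0. Tumour 2 has the highest share (1.53% thinned), and in every tumour the chosen cells have the higher sum.

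Genes outside the list with the pattern most like the inducible members were sought over the 20 sums of 4 tumours and 5 gates, centred within each gate, among 4949 genes of at least 20 CPM on average. The highest Pearson correlations were those of Slc25a11 (0.930), Kcnq1ot1 (0.888), Psme1 (0.842), Eif4a2 (0.841) and Crb3 (0.833). These points share libraries, so the depth and makeup of tumour 2 enter all 5 gates at once.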

How the data were processed

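The deposited values were raw counts of UMIs in each cell for each gene, made with Cell Ranger 2.2.0 on mm10 (GRCm38), with FastQC named beside it, per the submitters' processing notes. Dead cells had been removed before capture, per the labels' protocols. Barcodes were dropped here below 300 detected genes or from 15% mitochondrial UMIs upward. Cells passing exactly 1 non-luminal gate were taken first, then luminal cells, and cells in several non-luminal gates were left out. No doublet caller was run, and leaving out the 8% of cells with most UMIs was tried instead. Counts were summed per mouse and gate and fitted in edgeR 4.0.16 (R 4.3.3) with TMM scaling, filterByExpr and the quasi-likelihood test, with Benjamini-Hochberg adjustment over 10537 genes and calls at 0.05. Mouse was a block because the gates of a number came from 1 animal. DESeq2 1.42.0 was an alternative, and the fit was tested on simulated data. Intervals are exact Poisson or binomial, at 95%, and cover counting error only. The members and lists were chosen with earlier results of these data known. Values in every tumour are given for the 5 shared members with the highest mean and the 5 members that spread most over the tumours in luminal cells, and other pathway genes are named where they had the highest or lowest called change of their list, except for 1 that is not reported here.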

Additional observations from a re-analysis of the deposited data

Results flagged for a closer look

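Of 49 sets of 4 tumours (a member in a gate, at 20 CPM or more), 12 had 1 tumour far from the other 3, with its gap to the nearest other tumour, divided by the whole range, above Dixon's critical value at 95%, and in all 12 it was tumour 2 on the high side. Chance gives about 5% for independent values. Here the sets share libraries, 2 of the 4 tumours came from 1 mouse, and the mean that admitted a set included tumour 2. Irf9 in luminal cells and Rsad2 in endothelial cells were under 20 CPM in every other tumour. The 12 sets can therefore not be set against that rate, and the ratios are a description. The share of all genes past this value is not given, so the 12 sets have no background beside them. Tumour 2 was the highest tumour for 29.5% of all genes in endothelial cells and for 45.2% in luminal cells. In luminal cells the ratios were 0.935 for Irf9, 0.857 for Irf7 and 0.849 for Rtp4. In fibroblasts they were 0.916 for Isg15 and 0.830 for Xaf1. In macrophages they were 0.905 for Xaf1, 0.888 for Isg15 and 0.884 for Irf7. In endothelial cells they were 0.917 for Rsad2, 0.911 for Irf7, 0.877 for Phf11d and 0.830 for Isg15. Of the 38 endothelial Rsad2 UMIs, 26 came from 1 cell of tumour 2.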

How the results depend on the processing

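Of the 27 called fold changes of members, 0 changed sign under any alternative, 6 kept their call in every alternative in which they were tested (Bst2 and Trim30a in macrophages, Trim30a in endothelial cells and fibroblasts, Gbp2 and Rtp4 in fibroblasts), and 12 did if the fit without the mouse block is set aside. With no replicate block the calls fell to 3 members in fibroblasts, 2 in macrophages, 3 in endothelial cells, 0 in T cells and 5 for any gate. Leaving out each mouse gave 4 to 8 calls in fibroblasts, 3 to 9 in macrophages, 2 to 9 in endothelial cells, 0 to 2 in T cells, 5 to 15 for any gate and 3 to 8 shared members, the low calls without mouse 3 and the 3 shared members without mouse 2. With no count filter there were 11 calls in fibroblasts, 13 in macrophages and 4 in T cells. T cells had 2 calls with DESeq2's size factors, 2 with DESeq2's test, 4 without luminal-gate cells, 5 with doubled gate thresholds and 3 without the cells of most UMIs. Endothelial cells had 7 with DESeq2's test and 6 with doubled thresholds. Shared members numbered 4 without luminal-gate cells. The shares of all genes called or shared under these alternatives are not given. The genes tested ran from 7714 without mouse 3 to 30789 with no count filter. Whether these counts moved for the members in particular or for all genes therefore cannot be told. Luminal shares of cells with 3 or more inducible members in tumours 1 to 4 were 0.636, 2.35, 0.506 and 0.962% at 1500 UMIs and 1.28, 6.74, 1.51 and 2.55% unthinned. At 3-fold, tumours 3 and 4 differed for 0 endothelial members. Without tumour 2 the members that differed 2-fold numbered 1 in luminal cells, 0 in macrophages and 4 in endothelial cells. The endothelial count includes Rsad2, whose ratio compared the level of 3 counts in tumours without a UMI. The cause of these moves was not tested. Of 512 member levels, 66 left their interval when luminal-gate cells were left out. Depth limits the small gates, with 58 to 130 T cells and 75 to 250 endothelial cells per tumour.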
